A study of Mus musculus with 16 samples.

Results

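The comparison described here sets the 8 Paneth cell libraries from mice that received DEX against the 8 libraries from mice that received PBS, whatever was injected afterwards. Its members were chosen by label alone: all 16 libraries of the series enter it, and 11809 of 55414 genes held enough counts to be tested. Paneth cells sit in the crypts of the small intestine, where they secrete lysozyme and alpha-defensins. They were sorted from the small intestine of C57BL/6J mice. The mice received PBS or DEX in the first injection and PBS or TNF in the second injection 1 h later, and sampling followed after a further 3 h. Each of the 4 groups holds 4 biological replicates: DEX+PBS and DEX+TNF received DEX, and PBS+PBS and PBS+TNF did not. DEX commonly stands for dexamethasone, which is a synthetic glucocorticoid. The labels and methods used here leave the abbreviation unexplained and state no dose, age or sex for these mice. DEX was injected into the whole animal, so that the libraries hold the state of Paneth cells in a treated mouse.

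Glucocorticoids bind the glucocorticoid receptor, a nuclear receptor that moves into the nucleus and regulates genes through short palindromic response elements in DNA. Textbook targets include Fkbp5, Tsc22d3, Zbtb16, Sgk1 and Per1. In the liver and in muscle the receptor also drives genes of the fasting response, and in immune cells it restrains inflammatory genes. TNF acts through its receptors on NF-kB, which induces chemokines, its own inhibitor Nfkbia and, in part through interferon regulatory factors, interferon-induced genes. Pooling the libraries over both second injections asks which genes moved with DEX regardless of TNF.

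The sorted cells carried the defining Paneth cell transcripts. Lyz1 lay between 41288 and 222948 normalized CPM (counts scaled to a common library size) and Mmp7 between 2990 and 17408 in the 16 libraries. The T cell marker Cd3e was at 0 in 16 of 16 libraries and the fibroblast marker Col1a1 in 15. Other markers were present: the leukocyte marker Ptprc was at 0 in 5 libraries and reached 21.0 normalized CPM, the goblet cell mucin Muc2 lay between 803 and 6459, and the stem cell marker Lgr5 and the proliferation marker Mki67 were above 0 in all 16. The summed level of the immune cell markers ran from 48.5 to 395 normalized CPM over the 8 DEX libraries and from 113 to 206 over the 8 PBS libraries, that of the goblet cell markers from 3988 to 9921 and from 6393 to 13507, and that of the enteroendocrine markers from 2294 to 10773 and from 3433 to 17874. Library totals ran from 7286307 to 15832111 counts. In DEX+TNF the replicates differed in their TNF target genes. Nfkbia, the inhibitor of NF-kB, was at 330 and 382 normalized CPM in replicates 1 and 2 but at 28.3 and 41.0 in replicates 3 and 4, against 277 to 337 in PBS+TNF and 15.6 to 24.1 in PBS+PBS. Over the 33 tested NF-kB and TNF target genes, the mean log2 level was 2.54 at the lowest and 5.28 at the highest in DEX+TNF, against 5.02 to 5.44 in PBS+TNF and 2.31 to 2.68 in PBS+PBS. DEX+TNF replicate 4 also had the most tuft cell RNA (the tuft marker sum was 853 normalized CPM, and that of the enterocyte markers 952) and 3.33% mitochondrial counts. Many of the results that rest on these libraries are given with and without DEX+TNF replicates 3 and 4.

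DEX raised 9 genes over both second injections and lowered none at an adjusted p under 0.05 in edgeR's quasi-likelihood test with the second injection as a term. The 9 genes were Sgk1, Hif3a, Acy1, Fkbp5, Mt1, BB123696, Angptl4, Ddit4 and Zbtb16. They make up 0.0762% of the tested genes, and the called decreases make up 0%. At an unadjusted p under 0.05, 455 genes (3.85%) were higher and 405 (3.43%) were lower. DESeq2 called 49 genes higher and 21 lower, with the 9 among them, and limma voom called 19 higher and 8 lower. Each of the 9 genes was higher with DEX in both second-injection states, with an unadjusted p under 0.05 in each, in the libraries that gave the calls. In 8 of the 9 the 4 DEX libraries lay above the 4 PBS libraries in both states, the exception being BB123696. The share of all tested genes with this separation is not given here, and the 9 were called from the same libraries. In 5 of the 9 the 8 DEX libraries lay above all 8 PBS libraries, as they did in 0.0593% of all tested genes.

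**Figure D1:**
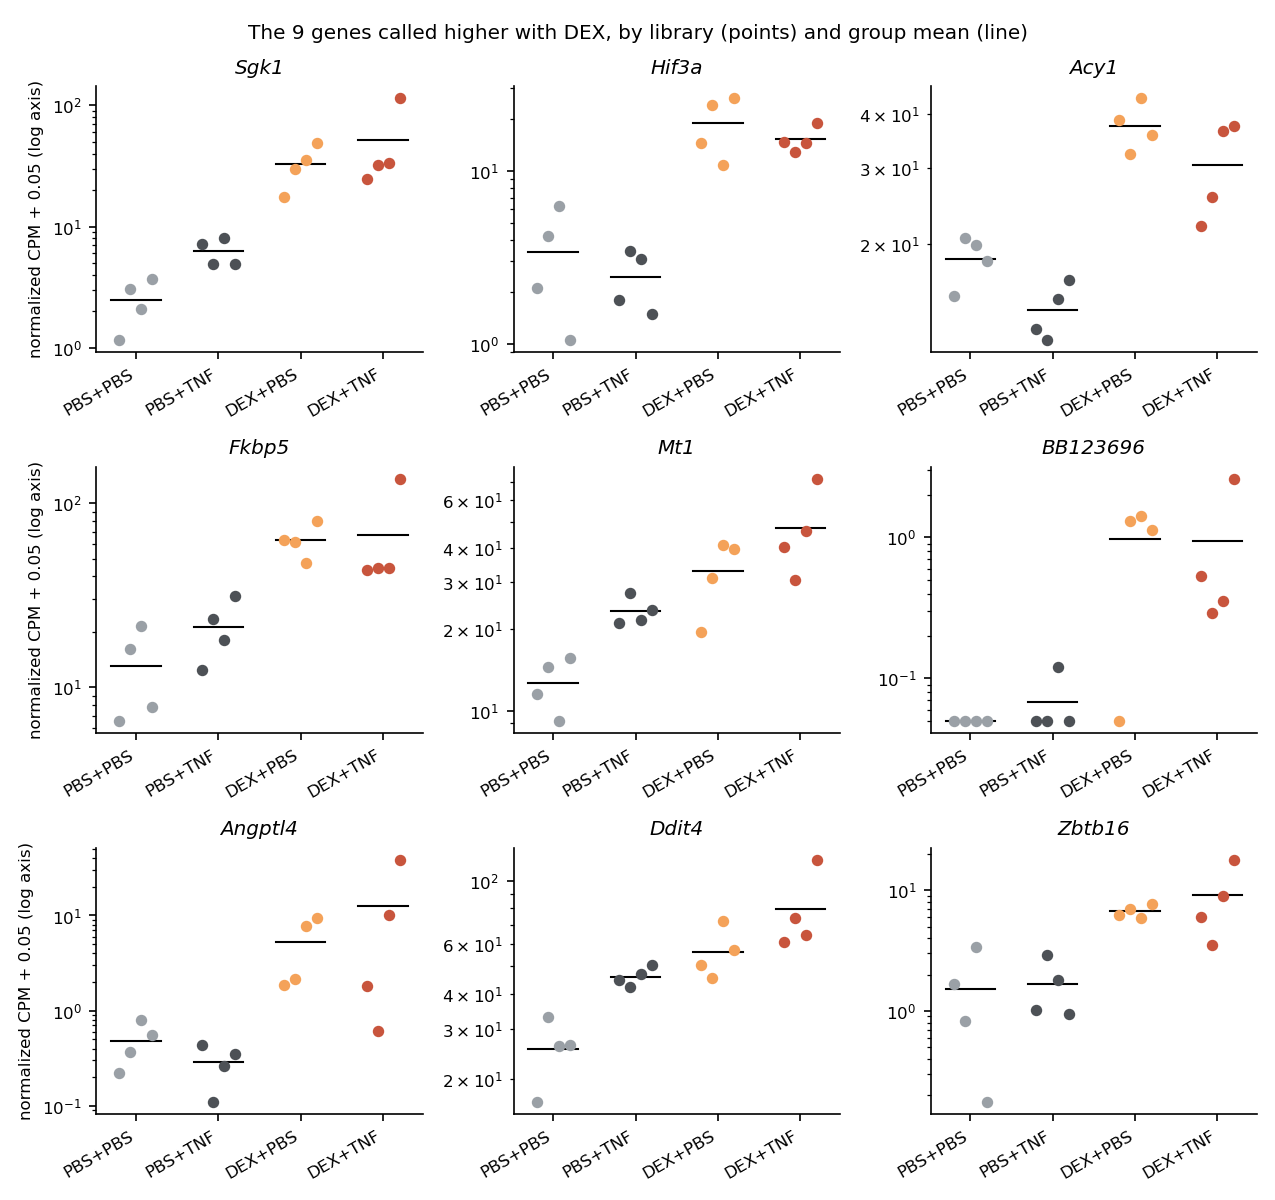
Normalized CPM plus 0.05 (log axis) of the 9 called genes in each library, grouped by first and second injection. Points are the 4 libraries of a group and lines are group means. For Sgk1 all 8 DEX libraries lie at 17.6 or above and all 8 PBS libraries at 7.94 or below.

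Sgk1, a serine/threonine kinase that promotes epithelial sodium transport, gave the smallest p. It was at 1.11, 3.00, 2.03 and 3.64 normalized CPM in PBS+PBS and at 17.6, 29.7, 35.0 and 48.5 in DEX+PBS. After TNF it was at 7.13, 4.82, 7.94 and 4.90 without DEX and at 24.8, 32.4, 33.6 and 115 with DEX. The DEX and PBS libraries were apart throughout, and the PBS+TNF libraries lay above the PBS+PBS libraries without overlap. The pooled log2 fold change was 3.40 ± 0.35 (SE, n = 8 against 8), a 10.5-fold increase, with an edgeR adjusted p of 0.000135. It was 3.76 without TNF and 3.06 with TNF. Without DEX+TNF replicates 3 and 4 it was 3.14 pooled and 2.22 with TNF.

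The Sgk1 gene lies at chr10:21758083-21875802 on the plus strand of GRCm39. Searched on both strands, the glucocorticoid response element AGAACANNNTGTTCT, a palindrome, occurred within 1000 bases of the start site in 2 of 11793 tested genes (0.017%), Sgk1 among them. The match began 965 bases upstream of the annotated start of the canonical transcript, outside any annotated exon and within an intron of longer Sgk1 transcripts. The looser core GNACANNNTGTNC, which every full match also contains, was within 5000 bases of the start in 4 of the 9 called genes (Sgk1, Mt1, Fkbp5 and Acy1) and in 15.8% of 11789 tested genes. Within 1000 bases it was found in Sgk1 and Mt1 and in 2.82% of tested genes, and between 250 bases before and 50 bases after the start in Mt1 and in 0.229%. The stretches around the Sgk1, Fkbp5 and Acy1 matches are shown as 3 of the 4 called genes with a match (the Mt1 stretch is not shown), with the matched letters in capitals, 5′ to 3′ on the strand of the gene. They come from chr10:21869540-21869674 (plus strand), chr17:28703902-28703964 (minus strand) and chr9:106314010-106314072 (minus strand). The Fkbp5 match starts 1213 bases and the Acy1 match 1573 bases downstream of the start, both in introns.
Sgk1: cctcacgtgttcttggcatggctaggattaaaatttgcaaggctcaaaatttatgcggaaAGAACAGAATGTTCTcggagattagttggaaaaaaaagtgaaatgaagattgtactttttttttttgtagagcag
Fkbp5: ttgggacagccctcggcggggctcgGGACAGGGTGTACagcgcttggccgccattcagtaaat
Acy1: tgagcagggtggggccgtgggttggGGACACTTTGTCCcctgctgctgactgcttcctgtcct
A match in these windows is a description of the letters, and receptor binding was not measured.

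Fkbp5 encodes a co-chaperone of the glucocorticoid receptor that lowers its affinity for hormone. It lies at chr17:28618058-28737521 on the minus strand. Its level was 6.51, 16.1, 21.4 and 7.79 normalized CPM in PBS+PBS and 63.2, 61.3, 47.3 and 79.5 in DEX+PBS. With TNF it was 12.3, 23.5, 18.1 and 31.0 without DEX and 43.2, 44.5, 44.6 and 135 with DEX. No DEX library fell into the range of the PBS libraries, and DEX+TNF replicate 4 stood above the other DEX libraries. The log2 fold change was 1.96 ± 0.31 (SE), 3.88-fold, at an adjusted p of 0.0149 (edgeR). Without DEX+TNF replicates 3 and 4 it was 1.80, and the adjusted p was 0.0495. Leaving out PBS+TNF replicate 3 ended the call, at an adjusted p of 0.0538.

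Zbtb16, a zinc finger transcription factor, lies at chr9:48563141-48748664 (minus strand). It was at 1.63, 0.766, 3.31 and 0.126 normalized CPM in PBS+PBS against 6.19, 6.99, 5.84 and 7.65 in DEX+PBS. In the TNF groups it was at 0.963, 2.83, 1.76 and 0.891 against 5.97, 3.48, 8.98 and 17.8. All 8 DEX libraries were higher, by a narrow margin between the highest PBS library (3.31) and the lowest DEX library (3.48). The log2 fold change of 2.29 ± 0.42 (SE) had an edgeR adjusted p of 0.0430. The call was kept in 8 of 27 alternatives and was lost without DEX+TNF replicates 3 and 4, with a log2 fold change of 1.88 and an adjusted p of 0.161.

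Hif3a, a hypoxia-inducible factor subunit that can restrain the other HIF subunits, rose in both states. It lies at chr7:16764918-16796352 (minus strand). PBS+PBS libraries held 2.06, 4.15, 6.25 and 1.00 normalized CPM and DEX+PBS libraries 14.4, 24.1, 10.8 and 26.3. The TNF groups held 1.73, 3.38, 3.02 and 1.44 without DEX and 14.6, 12.9, 14.5 and 18.9 with DEX. The ranges of the DEX and PBS libraries did not meet, and Hif3a levels without DEX overlapped between PBS+PBS and PBS+TNF. The pooled log2 fold change was 2.54 ± 0.30 (SE), 5.83-fold, with an adjusted p of 0.000643 in the edgeR test. It was 2.45 without and 2.64 with TNF. Without DEX+TNF replicates 3 and 4 it was 2.46 pooled, with an edgeR adjusted p of 0.00437, and 2.49 with TNF.

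Ddit4, which encodes an inhibitor of the growth kinase complex mTORC1, lies at chr10:59785491-59788492 (minus strand). It was at 16.5, 32.9, 26.1 and 26.3 normalized CPM in PBS+PBS and at 50.4, 45.5, 72.0 and 56.8 in DEX+PBS. With TNF it was at 44.5, 42.0, 46.8 and 50.4 without DEX and at 60.7, 74.0, 64.4 and 119 with DEX. The 2 states did not share a baseline: PBS+TNF libraries lay in or near the range of DEX+PBS, so that the pooled ranges overlapped although each state's groups were apart. The log2 fold change was 0.97 ± 0.18 (SE), 1.95-fold, with an edgeR adjusted p of 0.0430. This call was kept in 9 of 28 alternatives, and without DEX+TNF replicates 3 and 4 the log2 fold change was 0.91 with an adjusted p of 0.0704.

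Mt1, a metallothionein that binds zinc and copper, showed the same overlap between states. It was at 11.5, 14.5, 9.13 and 15.6 normalized CPM in PBS+PBS and at 19.5, 30.8, 41.0 and 39.6 in DEX+PBS. The PBS+TNF libraries held 21.0, 27.1, 21.6 and 23.4, and the DEX+TNF libraries 40.1, 30.5, 46.1 and 71.7. Within each state every DEX library exceeded every PBS library. The log2 fold change was 1.19 ± 0.20 (SE), 2.29-fold, at an adjusted p of 0.0171 (edgeR). Without DEX+TNF replicates 3 and 4 it was 1.07, at an adjusted p of 0.0704. Its neighbour and paralog Mt2 had a log2 fold change of 1.54 ± 0.42 (SE) and an adjusted p of 0.308, and how reads shared by such paralogs were counted is not given in the sources used here.

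Angptl4, a secreted inhibitor of lipoprotein lipase, had the largest fold change among called genes above the minimum level for naming (a mean of 1 normalized CPM). It lies at chr17:33992724-34000804 (minus strand). In PBS+PBS it was at 0.171, 0.319, 0.747 and 0.502 normalized CPM, and in DEX+PBS at 1.82, 2.11, 7.67 and 9.43. In PBS+TNF it was at 0.385, 0.0603, 0.211 and 0.297, and in DEX+TNF at 1.77, 0.566, 10.003 and 38.1. Angptl4 passed the filter on low counts only through the DEX groups, and its DEX libraries spread widely, with replicate 2 of DEX+TNF inside the range of the PBS libraries. The pooled log2 fold change was 4.59 ± 0.79 (SE), at an adjusted p of 0.0265 (edgeR). Without DEX+TNF replicates 3 and 4 it was 3.15, at an adjusted p of 0.0350. The call was kept in 14 of 27 alternatives.

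Acy1, an aminoacylase that frees amino acids from their N-acetylated forms, was the called gene with the smallest standard error. It lies at chr9:106310141-106315620 (minus strand). The levels were 15.2, 20.6, 19.9 and 18.2 normalized CPM in PBS+PBS and 38.6, 32.3, 43.4 and 35.7 in DEX+PBS. In the TNF groups they were 12.7, 11.998, 14.9 and 16.5 without DEX and 22.02, 25.7, 36.4 and 37.5 with DEX. The lowest DEX library exceeded the highest PBS library. The log2 fold change was 1.06 ± 0.14 (SE), 2.09-fold, at an adjusted p of 0.00209 (edgeR), and it was 1.02 without TNF and 1.11 with TNF. Without DEX+TNF replicates 3 and 4 it was 0.92 pooled and 0.76 with TNF. Acy1 was not on the list of glucocorticoid-induced genes. On the opposite strand its span overlaps the ribosomal protein gene Rpl29, whose own log2 fold change was -0.10 ± 0.23 (SE), with an adjusted p of 0.929. Whether the counting used strand is not given in the sources used here.

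BB123696, a long non-coding RNA at chr13:52883647-52951845 (minus strand), was nearly absent without DEX. Its counts summed to 117 over the 8 DEX libraries and to 1 over the 8 PBS libraries, a ratio of 120 in normalized CPM with an exact 95% interval of 21.1 to 4765 that covers counting error only. It was at 0, 1.27, 1.37 and 1.07 normalized CPM in DEX+PBS and at 0.484, 0.243, 0.306 and 2.54 in DEX+TNF, against 0 in all PBS+PBS libraries and 0.0703 in PBS+TNF replicate 3 alone. It had no count in PBS+PBS, and with a floor of 3 counts over that group its level in DEX+PBS was at least 18.3-fold higher. The exact 95% interval of that ratio began at 14.4. BB123696 passed the filter only through DEX libraries, and since its mean lay under 1 normalized CPM it is named because it was called, after its values were seen. Its edgeR adjusted p was 0.0171, and 0.0704 without DEX+TNF replicates 3 and 4.

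The calls differed in how much they depended on the processing. Sgk1, Hif3a and Acy1 were called in all 28 alternatives (other scalings, filters, tools, models and left-out libraries), Fkbp5 in 26 of 28, Mt1 in 22 of 28 and BB123696 in 21 of 27. Without DEX+TNF replicates 3 and 4 the test called 6 genes, of which Sgk1, Hif3a, Acy1, Fkbp5 and Angptl4 were among the 9; the sixth was Tsc22d3. The sign of the DEX effect of the 9 genes did not change in any alternative. The number called fell to 4 without PBS+PBS replicate 2, to 5 without PBS+TNF replicate 2, to 3 without PBS+TNF replicate 3 and to 4 without PBS+TNF replicate 4.

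**Figure D2:**
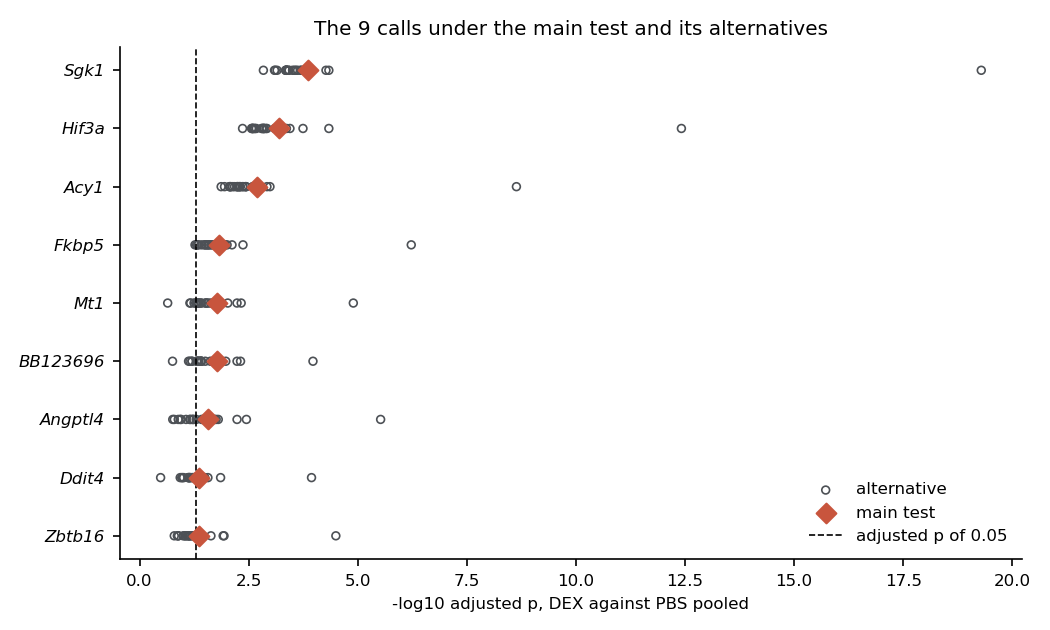
Minus log10 of the adjusted p of the 9 called genes in the edgeR test (diamond) and in each alternative at the same threshold (circle), with the dashed line at an adjusted p of 0.05. Sgk1, Hif3a and Acy1 stay to the right of the line in every alternative, and the rightmost circle of each gene is DESeq2.

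Whether DEX acted alike in both states was tested by the interaction, the DEX effect with TNF minus that without TNF. The edgeR test called 0 genes, with the smallest adjusted p at 0.102, and 642 genes had an unadjusted p under 0.05. DESeq2 called 9 and limma voom 6. The 9 pooled calls came from an additive fit of the same libraries, so that their interactions are given as values only. For Sgk1 the interaction was -0.70 ± 0.65 (SE) on the log2 scale, for Fkbp5 -0.62 ± 0.59, for Hif3a 0.20 ± 0.59 and for Acy1 0.09 ± 0.29. For Angptl4 it was 2.28 ± 1.52, with the largest standard error of these 5. These values depend on DEX+TNF replicates 3 and 4. Without them the effect with TNF was 2.22 for Sgk1, 1.04 for Fkbp5, 2.49 for Hif3a, 0.76 for Acy1 and 2.38 for Angptl4. The effects without TNF were 3.76, 2.27, 2.45, 1.02 and 3.54 in the same order.

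At an unadjusted p under 0.05 in both states and with the same sign, 41 genes were higher with DEX and 13 were lower. The effects without and with TNF share no library, although they share an estimate of the spread. Of the 108 genes higher without TNF at an unadjusted p under 0.05, 82 (75.9%) were also higher with TNF, where 53.0% of all tested genes were higher, and 41 (37.96%) passed the same threshold there, which 7.55% of all genes did in that direction. Of the 116 genes lower without TNF, 76 (65.5%) were lower with TNF, against 47.0% of all genes, and 13 (11.2%) passed, against 4.38%. Across the 11809 genes, which are not independent, the effects correlated with Pearson r = 0.222 and Spearman rho = 0.205. Without DEX+TNF replicates 3 and 4, Pearson r was 0.128.

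**Figure D3:**
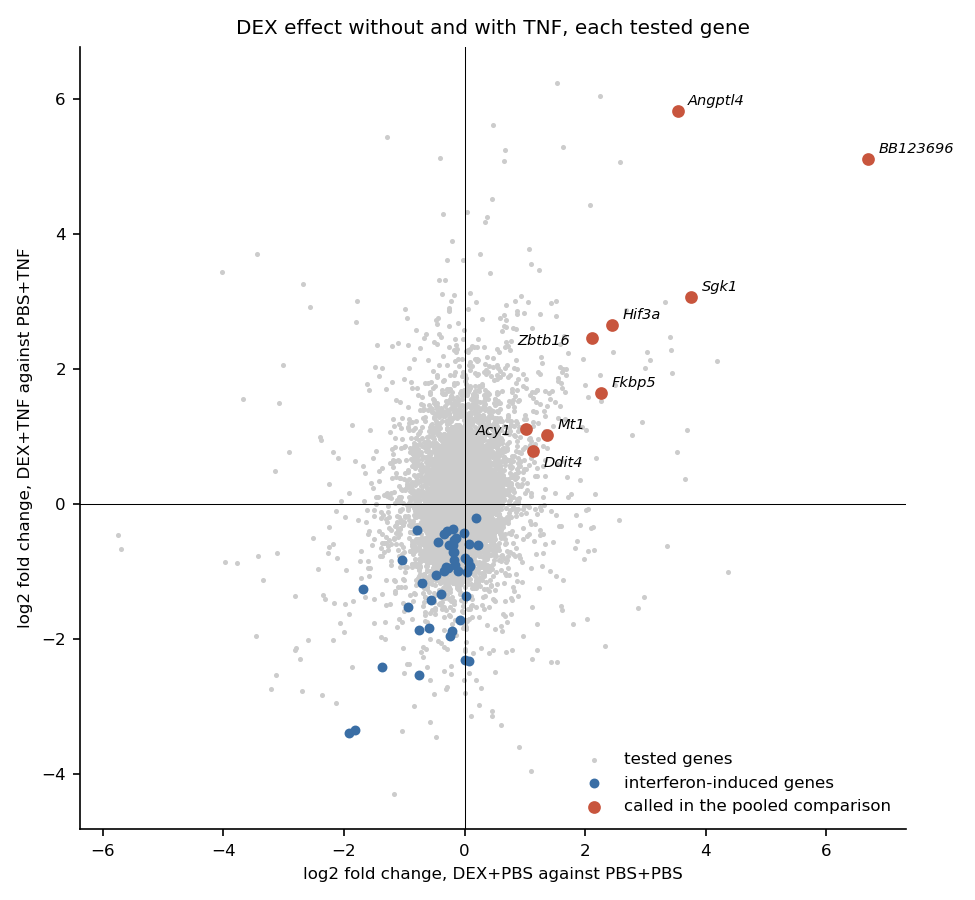
Log2 fold change of DEX without TNF (x axis) and with TNF (y axis) for each tested gene (grey), with interferon-induced genes in blue and the 9 called genes in red. The called genes lie in the upper right quadrant, and the interferon-induced genes lie below 0 on the y axis.

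Apart from the fitted test, 7 genes had all 8 DEX libraries above all 8 PBS libraries (0.0593% of those tested) and 1 gene had them all below (0.00847%). Those higher included Sgk1, Hif3a, Acy1, Fkbp5, Zbtb16 and Aqp1, and the single gene lower was Mthfd1l. Aqp1, a water channel, lay at 513, 532, 577 and 432 normalized CPM in DEX+PBS against 327, 382, 361 and 333 in PBS+PBS. With TNF it was at 396, 406, 531 and 451 with DEX and at 179, 225, 260 and 236 without. Its log2 fold change was 0.77 ± 0.15 (SE), with an edgeR adjusted p of 0.0594, just short of the threshold. Mthfd1l, a mitochondrial enzyme of folate metabolism, had a log2 fold change of -0.57 ± 0.13 (SE) and an adjusted p of 0.162. Aqp1 and Mthfd1l are named after their values were seen.

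Between adjusted p-values of 0.05 and 0.1 lay 11 further genes. Pdk4 and Tsc22d3 were among the genes fixed by name, and the other 9 are named after their values were seen. The 9 with higher levels were Rgs7bp, Trp53inp1, Pdk4, Aqp1, Ahcy, Txnip, Tsc22d3, Nkd1 and Akr1b7, and the 2 with lower levels were Ifit1 and Rtp4. All 11 had the same sign in both states. Rgs7bp and Akr1b7 passed the filter on low counts only through the DEX libraries. Ifit1 passed it only through the PBS libraries, with 4 of them and 0 DEX libraries at the cutoff. Pdk4, a kinase that switches off pyruvate dehydrogenase in fasting, was at 7.40, 7.11, 14.3 and 23.3 normalized CPM in DEX+PBS against 1.88, 1.79, 6.57 and 1.76 in PBS+PBS. With TNF it was at 3.95, 4.37, 26.5 and 41.3 with DEX and at 0.193, 1.63, 0.914 and 0.495 without. The groups were apart in each state, and the log2 fold change was 3.15 ± 0.61 (SE), at an adjusted p of 0.0594 (edgeR). Without DEX+TNF replicates 3 and 4 it was 2.14, and the effect with TNF was 2.23 in place of 4.43. Tsc22d3, which encodes the glucocorticoid-induced leucine zipper, was at 21.0, 20.3, 27.0 and 24.5 in DEX+PBS against 10.1, 12.3, 16.8 and 11.2 in PBS+PBS, and at 11.4, 10.7, 24.9 and 49.4 against 7.13, 4.82, 6.54 and 5.84 with TNF. Its groups were apart in each state too, but the log2 fold change was 0.88 without TNF and 2.00 with TNF, the latter being 0.87 without DEX+TNF replicates 3 and 4. The pooled value was 1.43 ± 0.30 (SE), with an adjusted p of 0.0846, and 0.88 with an adjusted p of 0.0441 without DEX+TNF replicates 3 and 4.

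Of the list of glucocorticoid-induced genes, 41 of 47 were tested and 7 were called, all higher: Sgk1, Hif3a, Fkbp5, Mt1, Angptl4, Ddit4 and Zbtb16. Of all tested genes 0.0762% were called, the share to set beside the called genes of each list below. Angptl4 passed the filter on low counts only through the DEX groups, as stated above. At an unadjusted p under 0.05, 15 of the 41 were higher (3.85% of all tested genes were) and 2 were lower (3.43%), namely Tat and Zfp36. The list was chosen with earlier results of these libraries known and is no independent evidence of a direction. The median log2 fold change of the 41 was 0.21, against 0.01 for all tested genes. It was 0.26 without TNF and 0.44 with TNF, and 0.29 pooled without DEX+TNF replicates 3 and 4. Per1, a clock gene, had a log2 fold change of 0.52 ± 0.21 (SE) and an adjusted p of 0.609. Klf9, a transcription factor, had 0.34 ± 0.18 and 0.719. The values of Dusp1, a phosphatase of MAP kinases, were -0.79 ± 0.42 and 0.722, and those of Cebpd, a transcription factor, -0.71 ± 0.41 and 0.730. Without DEX+TNF replicates 3 and 4 the log2 fold change was -0.35 for Dusp1 and -0.21 for Cebpd. Noct, a circadian phosphatase, had 0.19 ± 0.17 and 0.792.

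**Figure D4:**
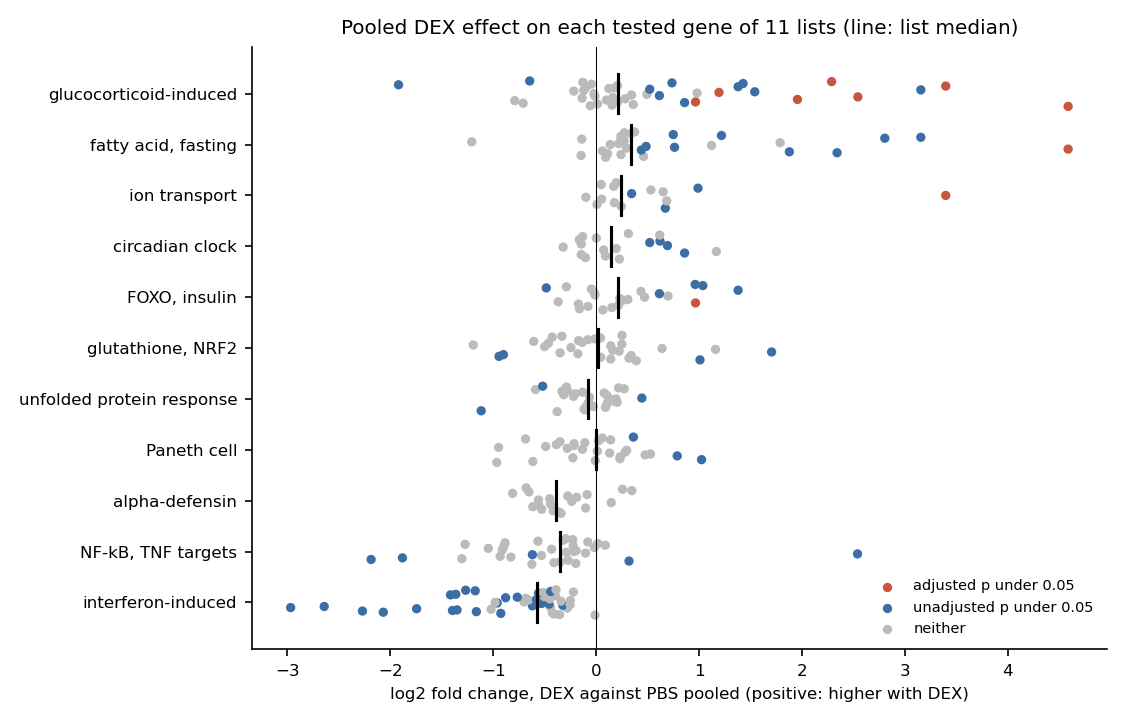
Pooled log2 fold change of each tested gene of 11 lists (x axis, positive values higher with DEX), with red for an adjusted p under 0.05, blue for an unadjusted p under 0.05, grey for neither and a black line at the list median. Of the 45 interferon-induced genes none lies above 0. The 7 called genes of the glucocorticoid list lie to the right of its median of 0.21, among uncalled members such as Pdk4 at 3.15.

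The hormone's receptors and the enzymes around them were measured as well, and Fkbp5 was the called gene of these 14. Nr3c1, the glucocorticoid receptor, had a pooled log2 fold change of 0.03 ± 0.20 (SE) and an edgeR adjusted p of 0.983, with -0.44 without TNF and 0.50 with TNF. Nr3c2, the mineralocorticoid receptor, had -0.47 ± 0.29 and 0.732. Its levels in DEX+TNF were 33.6, 38.5, 9.80 and 8.28 normalized CPM, and without replicates 3 and 4 its pooled log2 fold change was -0.10. Hsd11b2, which inactivates glucocorticoids, had 2.08 ± 0.59 and an adjusted p of 0.336. Its level was 3.76, 10.5, 5.73 and 96.5 normalized CPM in DEX+PBS and 12.9, 11.8, 4.18 and 16.1 in DEX+TNF, against 2.17 to 6.61 in the 8 PBS libraries. A single DEX+PBS library thus stood far above the others.

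Among 15 tested genes of epithelial ion transport that corticosteroids regulate, Sgk1 was called and 14 had a log2 fold change above 0, as did 6059 of all 11809 tested genes. The median over the list was 0.24, 0.20 without TNF and 0.23 with TNF. Slc9a2, a sodium-proton exchanger, and Slc12a2, a sodium-potassium-chloride cotransporter, were among the members at an unadjusted p under 0.05, both higher.

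Of 29 tested genes of fatty acid oxidation, ketogenesis and fasting, Angptl4 was called, and 10 were higher at an unadjusted p under 0.05 with none lower, against 3.85% and 3.43% of all tested genes. Angptl4 passed the filter only through the DEX groups, as stated above. Acsl1, an acyl-CoA synthetase, ran from 23.1 to 58.3 normalized CPM over the 8 PBS libraries (median 37.2) and from 39.1 to 73.2 over the 8 DEX libraries (median 55.2), and its log2 fold change was 0.44 ± 0.14 (SE) with an adjusted p of 0.402. Ppara, the fatty acid receptor, had 1.22 ± 0.36 and 0.365. The DEX and PBS ranges of both genes overlapped over both states. The list's median was 0.34 with all libraries and 0.01 without DEX+TNF replicates 3 and 4, and 0.02 in the state without TNF. Enterocytes also oxidize fatty acids. Of 15 tested enterocyte markers none had an unadjusted p under 0.05, and their median was 0.41 pooled, -0.24 without TNF and -0.46 without DEX+TNF replicates 3 and 4. Their summed level ran from 165 to 952 normalized CPM in DEX+TNF, from 128 to 173 in PBS+TNF, from 382 to 482 in DEX+PBS and from 412 to 606 in PBS+PBS, and the part of other cells in these results was not tested. In bulk libraries, fewer cells of a type and less RNA per cell cannot be told apart.

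Of 23 FOXO and insulin signalling genes tested, Ddit4 was called and 5 were higher at an unadjusted p under 0.05, against 1 lower (Trib1), where 3.85% of all tested genes were higher and 3.43% lower. Txnip, which binds thioredoxin and limits glucose uptake, was at 340, 219, 403 and 272 normalized CPM in DEX+PBS against 73.6, 168, 198 and 145 in PBS+PBS, and at 262, 364, 384 and 375 against 160, 191, 230 and 189 with TNF. The groups were apart in each state, with a log2 fold change of 0.96 ± 0.20 (SE) and an adjusted p of 0.0782. Trp53inp1, a p53 target that takes part in autophagy, had 1.04 ± 0.20 and 0.0594. Irs2, an insulin receptor substrate, had -0.01 ± 0.29 and 0.996. Of 18 clock genes, 4 were higher at an unadjusted p under 0.05 (Per1, Per2, Cry2 and Nr1d1), against 3.85% of all tested genes, and none passed the adjusted threshold.

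The interferon-induced genes went the other way. Of 45 tested, none was above 0, against 6059 of all 11809 tested genes. At an unadjusted p under 0.05, 23 were lower and none higher, while 3.43% of all tested genes were lower. None passed the adjusted threshold in the edgeR test, whereas DESeq2 and limma voom both called Ifit1 and Rtp4. Ifit1, which binds viral RNA, was at 5.01, 3.62, 2.81 and 2.97 normalized CPM in PBS+TNF and at 0.645, 0.404, 0.204 and 0.0997 in DEX+TNF. Without TNF it was at 0, 0.447, 0.374 and 0.126 in PBS+PBS and at 0.121, 0.0603, 0.115 and 0 in DEX+PBS. Rtp4, an interferon-induced chaperone of receptors, was at 16.8, 8.86, 8.999 and 10.4 in PBS+TNF and at 4.52, 3.48, 2.04 and 2.19 in DEX+TNF, against 1.46, 1.98, 1.82 and 2.76 in PBS+PBS and 0.971, 1.63, 0.802 and 1.17 in DEX+PBS. Both were lower with DEX in all 4 libraries after TNF, and their ranges overlapped without TNF. Ifit1 passed the filter on low counts only through the PBS libraries, as stated above. How many other genes of the list did so is not given here. The log2 fold change was -2.97 ± 0.59 (SE) for Ifit1 and -1.36 ± 0.27 for Rtp4, each with an edgeR adjusted p of 0.0656.

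By state, the interferon-induced list had the lower median with TNF. Its median log2 fold change was -0.58 pooled, -0.20 without TNF and -0.94 with TNF, against 0.01, -0.02 and 0.03 for all tested genes. Without TNF 34 of the 45 genes were below 0. In that state 3 were lower at an unadjusted p under 0.05, as were 116 of all 11809 tested genes. With TNF, 45 were below 0, against 47.0% of all tested genes, and 25 were lower at that threshold, against 4.38%. The mean log2 level of the list was 3.82 to 4.00 in PBS+TNF and 2.37 to 3.33 in DEX+TNF, the lower values being those of replicates 3 and 4. Without these 2 libraries, 43 of 45 genes were still below 0, the pooled median was -0.46, and 13 were lower at an unadjusted p under 0.05. The median of all tested genes was -0.01 in that setting, and their shares for the 2 counts are not given here. The 2 libraries that kept the TNF level of Nfkbia lay below all PBS+TNF libraries on this list, and at the level of PBS+TNF on the NF-kB list.

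**Figure D5:**
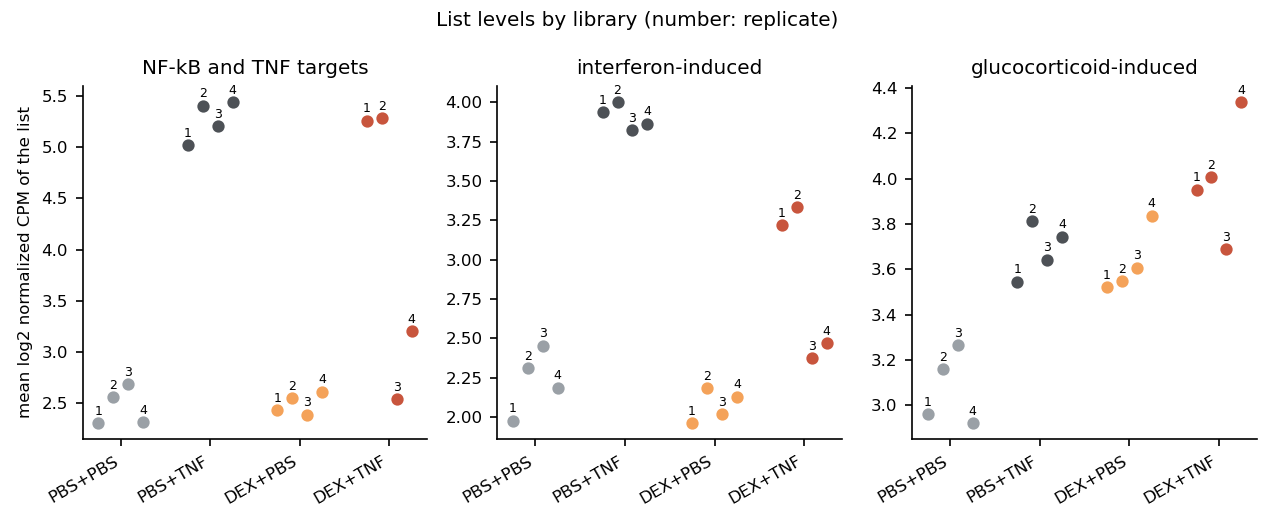
Mean log2 normalized CPM (with 1 added) of the tested genes of 3 lists in each library, with the replicate number above each point. DEX+TNF replicates 3 and 4 lie near the groups without TNF on the NF-kB list, and replicates 1 and 2 lie at 3.22 and 3.33 on the interferon list, under the 3.82 of the lowest PBS+TNF library.

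Of 33 NF-kB and TNF target genes none was called. Their median log2 fold change was -0.35 pooled but -0.06 without DEX+TNF replicates 3 and 4, as well as -0.06 in the state without TNF. At an unadjusted p under 0.05, Ccl28 and Lcn2 were higher and Cxcl1, Cxcl11 and Irf1 were lower, where 3.85% of all tested genes were higher and 3.43% lower. Nfkbia had a log2 fold change of -0.22 ± 0.40 (SE) and an adjusted p of 0.906, and 0.23 without the 2 libraries. Cxcl10, a chemokine, was at 36.4, 41.7, 32.6 and 59.0 normalized CPM in PBS+TNF and at 26.1, 33.0, 0 and 0.150 in DEX+TNF. Its pooled log2 fold change was -1.31 ± 0.96 (SE) with an edgeR adjusted p of 0.750, and -0.37 without DEX+TNF replicates 3 and 4. Cxcl10 passed the filter on low counts only through the PBS libraries, with 4 of them and 2 DEX libraries at the cutoff.

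Of 30 tested glutathione and NRF2 genes none was called, and the median was 0.01. At an unadjusted p under 0.05, 2 were higher and 2 lower, against 3.85% and 3.43% of all tested genes. Gclc, the catalytic subunit of the rate-limiting enzyme of glutathione synthesis, had a log2 fold change of -0.94 ± 0.30 (SE) and an edgeR adjusted p of 0.438. It was 24.7 to 32.8 normalized CPM in PBS+PBS and 22.4 to 31.5 in DEX+PBS, and 164 to 241 in PBS+TNF against 84.3, 92.4, 26.9 and 28.9 in DEX+TNF. Gpx2, an epithelial glutathione peroxidase, had -0.90 ± 0.33 and 0.551, with 459 to 765 in PBS+TNF and 212, 233, 121 and 88.0 in DEX+TNF. The log2 fold changes without TNF were -0.15 for Gclc and 0.00 for Gpx2. The interaction was -1.57 ± 0.47 (SE) for Gclc and -1.80 ± 0.49 for Gpx2, and neither was called. In DEX+TNF replicates 1 and 2, too, both genes lay under the PBS+TNF libraries. Without DEX+TNF replicates 3 and 4 the pooled log2 fold change was -0.53 for Gclc and -0.51 for Gpx2.

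The Paneth cell's own products showed no called change. Of 20 tested alpha-defensin genes of 28, none had an unadjusted p under 0.05. Above 0 were 3 of the 20, against 6059 of all 11809 tested genes. The median log2 fold change of the 20 was -0.39, with -0.40 without TNF and -0.43 with TNF. The 28 genes held 32.2% to 59.3% of the counts of a library. Near-identical alpha-defensin genes share reads, and how these were assigned is not given in the sources used here. Of 28 other Paneth cell genes, 3 were higher at an unadjusted p under 0.05, against 3.85% of all tested genes, and the median was 0.00. The 3 were Wnt3 and Dll4, niche ligands for stem cells, and Bhlha15 (Mist1), a transcription factor of secretory cells. Bhlha15 had a log2 fold change of 1.02 ± 0.27 (SE), which was 0.28 without TNF and 1.77 with TNF, and an adjusted p of 0.284. Of 31 genes of the unfolded protein response, Herpud1 was higher and Xbp1 and Atf3 were lower at an unadjusted p under 0.05. Of all tested genes 3.85% were higher and 3.43% lower at that threshold.

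Among markers of other cell types, the median of 9 tuft cell markers was 1.52 pooled, 1.40 without TNF and 1.79 with TNF. The summed level of the tuft markers ran from 22.4 to 138 normalized CPM in DEX+PBS and from 5.05 to 58.8 in PBS+PBS. Without DEX+TNF replicates 3 and 4 the tuft median was -0.12 pooled and -6.34 with TNF. The median of 10 goblet cell markers was 0.00 both with and without these libraries, and that of 5 enteroendocrine markers was -0.39 with and -0.41 without them. None of the tested markers of tuft cells (9), enterocytes (15), cycling cells (10) or immune cells (5) had an unadjusted p under 0.05. Fcgbp of 10 goblet cell markers, Slc12a2 of 9 stem cell markers and, lower, Tac1 of 5 enteroendocrine markers did. Of all tested genes 3.85% were higher and 3.43% lower at that threshold. No marker of stromal cells or of red blood cells held enough counts to be tested. For the 9 called genes the part of these cell types was not tested, and the values without DEX+TNF replicates 3 and 4 stand beside each gene.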

How the data were processed

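The authors deposited raw counts per Ensembl gene, 1 column per library. Per the labels and the study's methods, the RNA of sorted cells was made into stranded mRNA libraries, checked with FastQC 0.12 and aligned with STAR (2.7.10a in the submitters' processing notes, which also name DESeq2) to GRCm39. The counting program is not given in the sources used here. Gene names and coordinates came from GENCODE M39 on the same assembly, which lacked 665 of 55414 identifiers. Genes were filtered with filterByExpr, which left 11809, and scaled with TMM factors. DEX was tested with edgeR 4.0.16 (quasi-likelihood, robust) in a model with DEX and the second injection as additive terms, on R 4.3.3. Effects within a state and the interaction came from a model with a mean per group. Benjamini-Hochberg adjustment ran over all tested genes. Standard errors are the log2 fold change divided by the square root of F. The test was checked on simulated counts. Named genes were the 15 largest increases and 10 largest decreases among calls averaging at least 1 normalized CPM, and 20 genes fixed by name; others are marked. The members and lists were chosen with earlier results of these data known. DESeq2 1.42.0, limma 3.58.1 and other scalings, filters, models and left-out libraries served as alternatives. Depth limits the precision of genes under about 1 normalized CPM. Results of some genes are not reported here.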

Additional observations from a re-analysis of the deposited data

Results flagged for a closer look

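In 11 of 132 gene and group sets (33 named genes in 4 groups), a library stood apart from the other 3 by more than Dixon's 95% critical value for 4 samples, which chance gives in about 1 of 20. In normalized CPM, DEX+TNF replicate 4 was highest for Sgk1 (115), Fkbp5 (135) and BB123696 (2.54). DEX+TNF replicate 1 was lowest for Txnip (262). DEX+PBS replicate 4 was highest for Hsd11b2 (96.5). In PBS+PBS, replicate 1 was highest for Rgs7bp (0.685), replicate 3 for Pdk4 (6.57) and replicate 4 for Cxcl10 (0.251, with the others at 0). In PBS+TNF, replicate 2 was highest for Dusp1 (19.7), replicate 3 for BB123696 (0.0703, with the others at 0) and replicate 4 for Rgs7bp (0.0495, with the others at 0).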

How the results depend on the processing

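The 9 calls of the pooled test, all 9 of which also held in both states, were counted under 28 alternatives. Requiring a mean of at least 5 CPM gave 5 calls (5 in both states), an adjusted p under 0.01 gave 3 (3), DESeq2 gave 70 (44), limma voom with quality weights gave 27 (21), and the average of the effects in a model with a mean per group gave 22 (18). Leaving out 1 library gave 3 to 12 calls, and 3 to 11 in both states. The interaction had 0 calls in the edgeR test, 9 in DESeq2, 6 in limma voom and 0 to 1 when 1 library was left out. The deviations of same-numbered libraries correlated from -0.365 to 0.504 (12 of 24 pairs over 0.1, and 7 of 16 libraries best with their own number). These values do not settle whether the numbers pair the samples, since the difference from differently numbered pairs was not tested. The main test did not pair samples by number. With the replicate number as a block, edgeR called 7 genes, without Zbtb16 (adjusted p = 0.0815) and Ddit4 (adjusted p = 0.0556). The cause of these differences was not tested. Of the genes fixed by name, 3 with a pooled effect near 0 changed sign. Nr3c1 was at -0.098 in limma voom, -0.081 without DEX+TNF replicates 3 and 4, and from -0.087 to 0.12 with 1 library left out. Nfkbia was at 0.0093 and 0.23 in the first 2 of these settings. Irs2 was at 0.029 with no term for the second injection, at 0.20 without DEX+TNF replicates 3 and 4, and from -0.17 to 0.11 with 1 library left out. The median over all tested genes moved by less than 0.1 (log2) with other scalings.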

Other observations

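DESeq2 and limma voom shared 24 calls in the pooled comparison, and 6 of these genes were lower with DEX. The 6, named after their values were seen, were Ifit1, Rtp4, Socs3, Tnfsf10, Sema4c and Slfn2. Socs3, a feedback inhibitor of cytokine signalling, had an edgeR log2 fold change of -1.80 ± 0.44 (SE) with an adjusted p of 0.200, -1.004 without TNF, -2.50 with TNF and -1.30 without DEX+TNF replicates 3 and 4. Tnfsf10, the death ligand TRAIL, had -1.40 ± 0.34 and an adjusted p of 0.200, with -1.30 without TNF and -1.49 with TNF. Slfn2, a Schlafen family member, had opposite signs in the 2 states, 0.90 without TNF and -3.59 with TNF. None of the 6 passed the adjusted threshold in the edgeR test.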
